A study of Mus musculus with 24 samples.

Results

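Of the 299780 accessible intervals listed for untreated (Ctrl) mouse embryonic stem cells, 70825 (23.6%) shared not a single base with any of the 272268 intervals listed for cells given an mTOR inhibitor (Paused). These 70825 intervals, called Ctrl-only here, were chosen by comparing the positions of the deposited interval tables. The other 228955 Ctrl intervals overlapped a Paused interval. ATAC-seq reads mark open chromatin, since Tn5 transposase cuts and tags DNA mostly where no nucleosome covers it. The E14 cells were grown on gelatin in serum medium with leukemia inhibitory factor, with no feeder cells named in the labels. Wild type cells (WT) stood beside 2 Smad2 knockout lines, Smad2_KO1 and Smad2_KO2, whose making the labels do not describe, and each line was sampled as Ctrl (no inhibitor) or Paused (200 nM INK128 for 12 hours), with 4 libraries in each of the 6 groups. The labels do not say whether libraries came from separate cultures, so the p-values below measure the spread between libraries, which may be technical.

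Open intervals away from transcription starts are commonly enhancers, short DNA elements at which transcription factors evict nucleosomes, and a start is usually open in most cells that use the gene. Nodal, a ligand of the TGF-beta family, acts through receptors that phosphorylate Smad2, which then binds chromatin with Smad4 and raises targets such as Lefty1. Inhibition of mTOR, the kinase that couples nutrients to growth, brings embryonic stem cells into a reversible, slowly growing state that resembles diapause of the embryo. An interval in 1 table alone says that no interval was listed there for the other treatment. It is not a measured loss of accessibility, because each table holds the values of its own 12 libraries only and was normalized separately.

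The sequences of promoters where a Ctrl-only interval lay show both ways in which an interval can lack a partner. Shown are the 250 bases before the transcription start (RefSeq, GRCm38.p6, written 5′ to 3′ on the gene's strand), for the strongest such promoters that lay outside every protein-coding gene body. Capitals mark the bases inside the Ctrl-only interval. At Zfp36, which encodes an mRNA-destabilizing protein, Fkbp1b, which encodes a calcium channel regulator, Gtsf1l and Agtrap, which encodes a protein bound to the angiotensin receptor, the nearest Paused interval was 3000, 1382, 1991 and 3519 bases away.
Zfp36, chr7:28379229-28379478, minus strand: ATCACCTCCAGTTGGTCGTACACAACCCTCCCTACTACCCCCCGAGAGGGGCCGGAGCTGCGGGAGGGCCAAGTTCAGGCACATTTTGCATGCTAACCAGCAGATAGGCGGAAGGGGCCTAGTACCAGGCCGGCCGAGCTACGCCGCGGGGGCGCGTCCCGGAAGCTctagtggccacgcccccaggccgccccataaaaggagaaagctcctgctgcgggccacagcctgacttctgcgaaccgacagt
Fkbp1b, chr12:4841574-4841823, minus strand: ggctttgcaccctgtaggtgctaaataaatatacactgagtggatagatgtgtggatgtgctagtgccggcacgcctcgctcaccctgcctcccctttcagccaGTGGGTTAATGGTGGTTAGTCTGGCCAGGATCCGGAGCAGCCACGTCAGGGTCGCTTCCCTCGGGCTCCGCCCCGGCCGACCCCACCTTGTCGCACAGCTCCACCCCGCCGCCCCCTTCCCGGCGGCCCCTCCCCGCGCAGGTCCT
Gtsf1l, chr2:163089602-163089851, minus strand: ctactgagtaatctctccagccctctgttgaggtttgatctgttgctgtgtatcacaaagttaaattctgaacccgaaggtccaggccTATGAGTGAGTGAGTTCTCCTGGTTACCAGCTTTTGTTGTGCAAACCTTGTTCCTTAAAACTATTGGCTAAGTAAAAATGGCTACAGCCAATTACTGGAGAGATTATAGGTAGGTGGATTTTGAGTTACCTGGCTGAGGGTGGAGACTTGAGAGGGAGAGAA
Agtrap, chr4:148088065-148088314, minus strand: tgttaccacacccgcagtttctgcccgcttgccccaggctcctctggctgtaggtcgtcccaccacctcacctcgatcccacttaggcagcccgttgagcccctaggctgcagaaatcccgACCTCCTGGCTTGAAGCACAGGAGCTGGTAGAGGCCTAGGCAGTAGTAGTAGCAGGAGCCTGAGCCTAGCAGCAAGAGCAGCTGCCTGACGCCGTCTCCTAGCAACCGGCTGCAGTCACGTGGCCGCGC
At B3galt4, which encodes a glycolipid galactosyltransferase, and Id2, which encodes an inhibitor of basic helix-loop-helix factors, a Paused interval lay 99 and 26 bases beside the Ctrl-only interval.
B3galt4, chr17:33951489-33951738, minus strand: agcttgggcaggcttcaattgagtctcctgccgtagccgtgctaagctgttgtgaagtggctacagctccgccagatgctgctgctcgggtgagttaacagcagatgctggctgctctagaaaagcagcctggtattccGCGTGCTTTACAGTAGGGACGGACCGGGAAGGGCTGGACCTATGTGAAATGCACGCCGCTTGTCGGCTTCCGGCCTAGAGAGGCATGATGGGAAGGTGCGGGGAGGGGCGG
Id2, chr12:25096093-25096342, minus strand: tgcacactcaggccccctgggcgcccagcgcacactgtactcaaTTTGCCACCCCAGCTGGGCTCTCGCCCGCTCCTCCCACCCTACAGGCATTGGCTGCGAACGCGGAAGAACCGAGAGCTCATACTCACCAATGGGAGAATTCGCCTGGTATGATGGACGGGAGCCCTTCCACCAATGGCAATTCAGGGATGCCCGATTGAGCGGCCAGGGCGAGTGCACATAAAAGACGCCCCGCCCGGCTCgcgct
The Ctrl-only intervals at these promoters had a mean normalized read number over the 12 Ctrl libraries of 289.7 at Zfp36, 274 at Fkbp1b, 263 at Gtsf1l, 228 at Agtrap, 469 at B3galt4 and 410 at Id2. The Gtsf1l stretch held 1 CpG and 44.0% G or C, whereas the other 5 stretches held 12 to 18 CpG and 59.2% to 64.8% G or C.

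Among 21262 promoter windows of 300 bases (250 before to 50 after a start; chromosome 18 is not in the table), 523 overlapped Ctrl-only intervals and no other Ctrl interval, and 10175 overlapped an interval with a Paused partner. The 523 windows had a median of 10 CpG and 56.0% G or C. Windows with a partnered interval had 20 CpG and 61.3%, but partnered windows weighted to the same interval level had 8 CpG and 55.3%. The letters GGGCGG, read on both strands, stood in 42.3% of the 523 windows, in 41.8% of partnered windows of the same level and in 46.2% of all windows. CCAAT stood in 33.7%, 36.0% and 38.2% of the same sets, and TATAAA in 10.9%, 11.2% and 12.6%. CACGTG stood in 10.1%, 7.92% and 7.84%, CCGGAAGT in 2.10%, 4.19% and 5.15%, and ATTTGCAT in 1.34%, 1.58% and 1.66%. At the same level the Ctrl-only promoters therefore differed from partnered promoters by at most a few percentage points in each motif, and no test was made of these shares.

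Ctrl-only intervals were mostly weak. Their mean normalized reads had a median of 11.7 (quartiles 9.31 and 15.3), against 27.0 for intervals that overlapped a Paused interval. Of the Ctrl-only intervals 32.4% had a mean under 10, against 5.03% of the overlapping ones. From the lowest to the highest decile of the Ctrl table, the share without a Paused partner went from 67.0% to 2.82%, and it was lower in each decile than in the one before. The same held in the other direction: 43302 Paused intervals overlapped no Ctrl interval, and their share went from 44.3% in the lowest to 2.75% in the highest decile of the Paused table. Reads in intervals, in megareads, were 11.8 to 16.5 per library in Ctrl and 11.5 to 20.0 in Paused, where they averaged 13.5 ± 1.42 for WT and, deeper, 16.1 ± 0.918 for Smad2_KO1 and 15.4 ± 3.17 for Smad2_KO2 (SD, n = 4 each). The part of depth in whether an interval was listed was not tested.

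**Figure D1:**
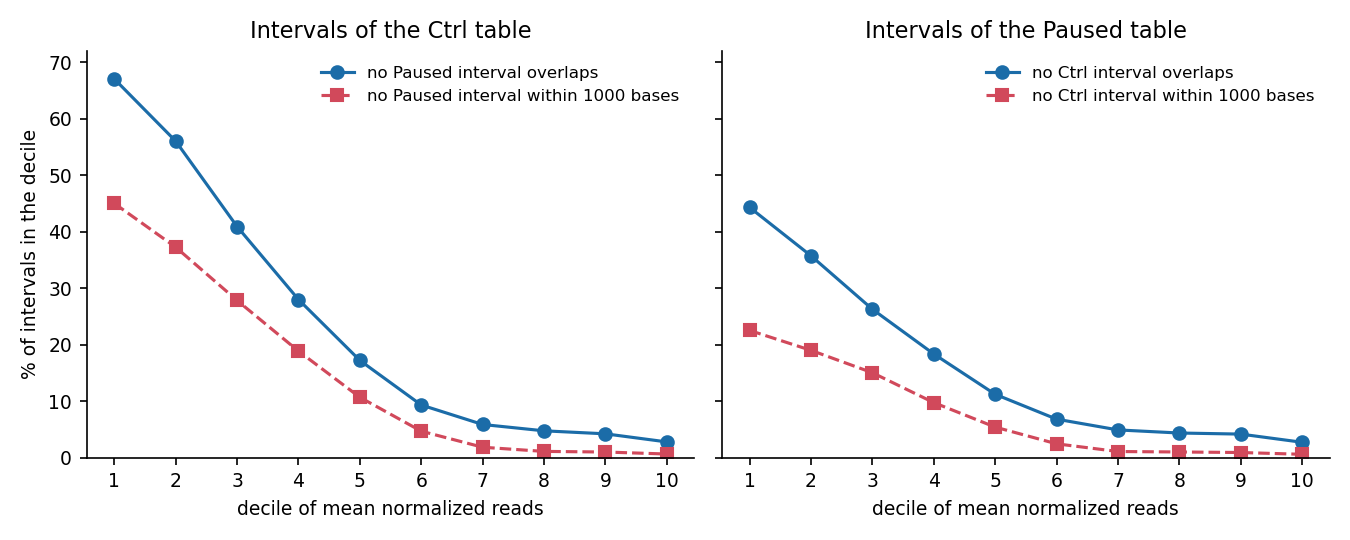
Share of intervals with no overlapping interval (circles) and with none within 1000 bases (squares) in the other table, against the decile of mean normalized reads, for the Ctrl table (left) and the Paused table (right). In Ctrl the share without an overlap falls from 67.0% in the lowest decile to 2.82% in the highest.

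In every library the Ctrl-only intervals took a small and similar part of the signal. They held 8.27% ± 0.429 of the summed normalized reads across WT, 8.40% ± 0.268 across Smad2_KO1 and 8.45% ± 0.0287 across Smad2_KO2 (SD, n = 4 each). The median Ctrl-only interval had 11.1 ± 0.658 normalized reads across WT, 12.0 ± 0.342 across Smad2_KO1 and 12.1 ± 0.440 across Smad2_KO2. The share of intervals that were Ctrl-only was 21.4% to 25.0% on the 21 chromosomes. Accessibility near marker genes overlapped between cell types, by the mean of the strongest Ctrl interval in or within 1000 bases of each gene. It ran from 0 (no interval, Dppa5a) to 515 (Zfp42) at 8 embryonic stem cell genes, with a median of 192. Medians were 88.7 at fibroblast feeder genes, 101 at trophoblast, 186 at primitive endoderm and 239 at neural genes. The 3 liver genes had 22.6 (Alb), 56.0 (Ttr) and 617 (Apoa2). Smad2 itself was nearest to 60 Ctrl intervals, 12 of them Ctrl-only. Its strongest interval had 362 ± 44.6 normalized reads across WT, 363 ± 42.6 across Smad2_KO1 and 355 ± 23.1 across Smad2_KO2 (SD, n = 4 each), which does not check the knockout.

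Many Ctrl-only intervals sat beside a Paused interval that was itself without a Ctrl partner. A Paused interval lay within 200 bases of 7181 Ctrl-only intervals, and 93.5% of these neighbours overlapped no Ctrl interval. For the 2806 Ctrl-only intervals with a gap of 1 to 50 bases (1 means adjacent) that share was 98.8%, and it was 54.1% at 201 to 350 bases and 13.2% at over 1000 and up to 5000 bases. The rule itself favours high shares at short gaps, because a Paused interval there could overlap only a second Ctrl interval close by. Of all Ctrl intervals 22.3% had another within 1000 bases. In all, 26125 Ctrl-only intervals had a Paused interval within 1000 bases, and 44700 (63.1%) did not; the latter are called isolated here. Just inside the rule, the 666 intervals with a gap of 1 to 10 bases had a median mean of 14.9, and just outside it the 713 intervals that overlapped by 1 to 10 bases had 14.1. Asking for an overlap of at least 50% would raise the number of Ctrl-only intervals to 83954, and counting a Paused interval within 1000 bases as a partner lowers it to 44700.

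**Figure D2:**
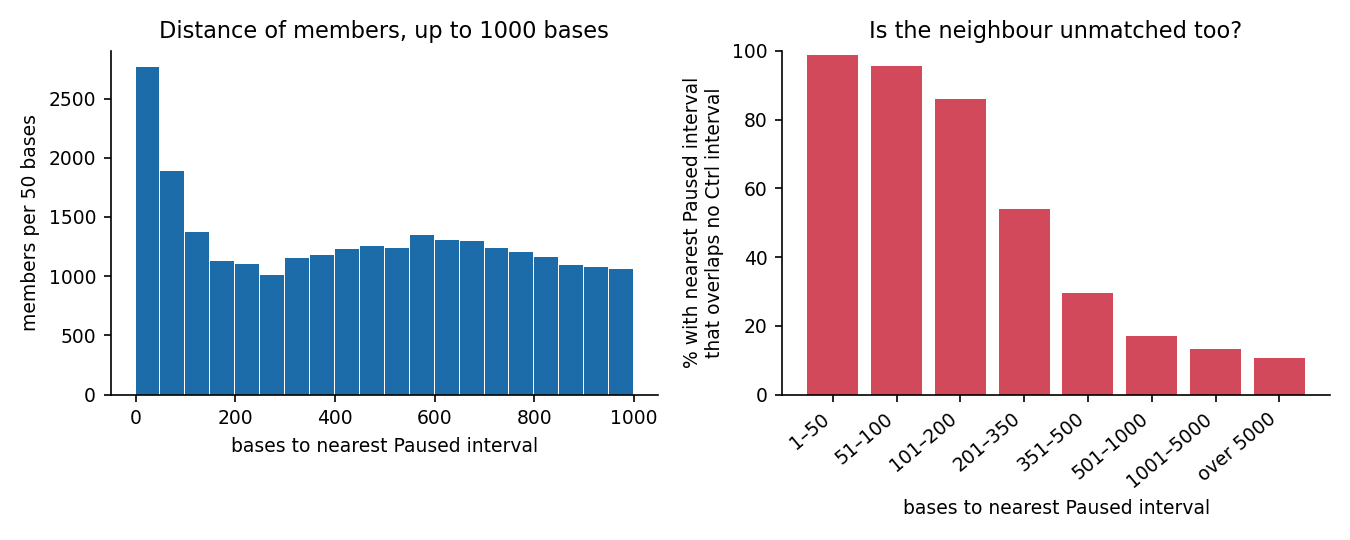
Left, number of Ctrl-only intervals (members) per 50 bases of distance to the nearest Paused interval. Right, share of members whose nearest Paused interval overlaps no Ctrl interval, by distance class in bases: 98.8% at 1–50 and 13.2% at over 1000 and up to 5000. At short distances the rule itself favours a high share.

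Strong Ctrl-only intervals were few, and most had such a Paused neighbour without a Ctrl partner. Whether both mark the same element was not tested. Of 32582 Ctrl intervals with a mean of 100 or more, 944 (2.90%) had no Paused partner. A Paused interval lay within 1000 bases of 714 of them, and for 686 of the 714 (96.1%) that neighbour had no Ctrl partner either. For 391 of the 944 it lay within 200 bases, where the rule favours this. The Paused neighbours of these 686 had a median mean of 89.8 in their own table, 313 of them had 100 or more, and 64 had under 20. The other 230, or 0.706% of the strong Ctrl intervals, were isolated. Of the 37130 strong Paused intervals 1158 (3.12%) had no Ctrl partner, and 270 (0.727%) were isolated, so the counts were alike in both directions.

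The strongest Ctrl-only interval, chr12:118301979-118302179, lay 539 bases from Sp4, which encodes a transcription factor of the Sp family. It had 611, 553, 497 and 599.6 normalized reads across WT, 576, 499.6, 618 and 609.9 across Smad2_KO1 and 547, 569.7, 522 and 603 across Smad2_KO2, so the 3 groups overlapped. A Paused interval without a Ctrl partner lay 34 bases away, with a mean of 177 in the Paused table. The second, chr4:150236974-150237174, lay in Eno1, the glycolytic enzyme enolase, with a mean of 545 and a Paused neighbour of 99.3 at 91 bases. Others of the 10 strongest were in Dcaf11 (488, a substrate receptor of a ubiquitin ligase), B3galt4 (469), Mthfd1l (453, a mitochondrial folate enzyme) and Ltbp4 (444, a protein that binds latent TGF-beta), or next to Ccno (473, a cyclin of multiciliated cells), Ypel4 (447) and Id3 (435, an inhibitor of basic helix-loop-helix factors). At these 7 the nearest Paused interval was 75 to 466 bases away and had no Ctrl partner. The exception among the 10 was an isolated interval in Nlrp12, described next.

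Among isolated intervals the strongest was chr7:3221447-3221647, inside Nlrp12, a NOD-like receptor of innate immunity. It had 564, 568, 651 and 558 normalized reads across WT, 452, 544, 460.1 and 537 across Smad2_KO1 and 456.9, 456.9, 464 and 575 across Smad2_KO2. The WT libraries were mostly the highest, but the ranges of WT and Smad2_KO2 overlapped. The log2 difference from WT was -0.23 ± 0.08 (SE) in Smad2_KO1 (limma adjusted p = 0.0597) and -0.26 ± 0.08 in Smad2_KO2 (limma adjusted p = 0.0325). Next came intervals at H2ac11 (mean 408), a replication-dependent histone H2A gene, Plekhg2 (399), a guanine nucleotide exchange factor, and Hdgf (389), a nuclear growth factor. Each of these 3 lay within 140 bases of a RefSeq start, with the nearest Paused interval 1236, 3110 and 1061 bases away. Then followed Rcor2 (345), a corepressor that partners the demethylase LSD1, Epha2 (340), an ephrin receptor, Pura (332), which encodes a nucleic acid-binding protein, Nav1 (331), Cdyl2 (318), a chromodomain protein, and Psd2 (317). The levels of these Paused neighbours ranged widely in their own table, from 7.50 at Nlrp12 and 9.17 at Hdgf to 476 at Nav1.

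Of the 230 isolated intervals with a mean of 100 or more, 7 (3.04%) were called higher and 25 (10.9%) lower in both KO lines. Of all tested Ctrl intervals 3.95% were called higher and 3.20% lower. Of the 10 isolated intervals named above, the one inside the gene body of Cdyl2 was called higher in both KO lines. The Cdyl2 interval had 242, 291, 231 and 288 normalized reads across WT, 321, 343, 382 and 393 across Smad2_KO1 and 301, 339, 325 and 363 across Smad2_KO2. All 8 KO libraries were above all 4 WT libraries. The log2 difference was 0.45 ± 0.09 (SE) in Smad2_KO1 (limma adjusted p = 0.000849) and 0.34 ± 0.09 in Smad2_KO2 (limma adjusted p = 0.0133). The call was lost with DESeq2 size factors, with the DESeq2 Wald test, at an absolute log2 difference of at least 1, without Smad2_KO2 replicate 4 and without WT replicates 3 and 4.

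By position, the Ctrl-only intervals lay slightly more often in and near protein-coding genes than overlapping intervals of the same level. For this and the next comparisons, overlapping Ctrl intervals were weighted so that their mean levels were spread like those of the Ctrl-only intervals. Inside gene bodies lay 53.5% (95% Wilson interval 53.1 to 53.8) against 50.0% at the same level, and over 50 kb from any gene body 19.4% against 21.4%. Within 1000 bases of a gene end lay 5.56% (5.39 to 5.73) against 4.40%, and within 1000 bases of a transcription start 2.10% of 68468 against 1.47%. The isolated intervals were close to the same level inside genes, with 50.1% against 49.7%. They went the other way near gene ends (3.82% against 4.15%), near starts (1.03% against 1.25%) and over 50 kb away (24.3% against 21.8%). The intervals with a Paused neighbour within 1000 bases carried the excess near genes, with 59.2% against 50.5% inside genes and 8.54% against 4.83% near gene ends. Of them 65.6% had another Ctrl interval within 1000 bases, against 23.0% at the same level and 10.2% of the isolated ones. This contrast follows in part from the split itself. Since 76.4% of Ctrl intervals overlapped a Paused interval, a Ctrl neighbour often brings a Paused neighbour with it. Wilson intervals cover counting error alone, intervals are not replicates, and these shares were not tested.

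**Figure D3:**
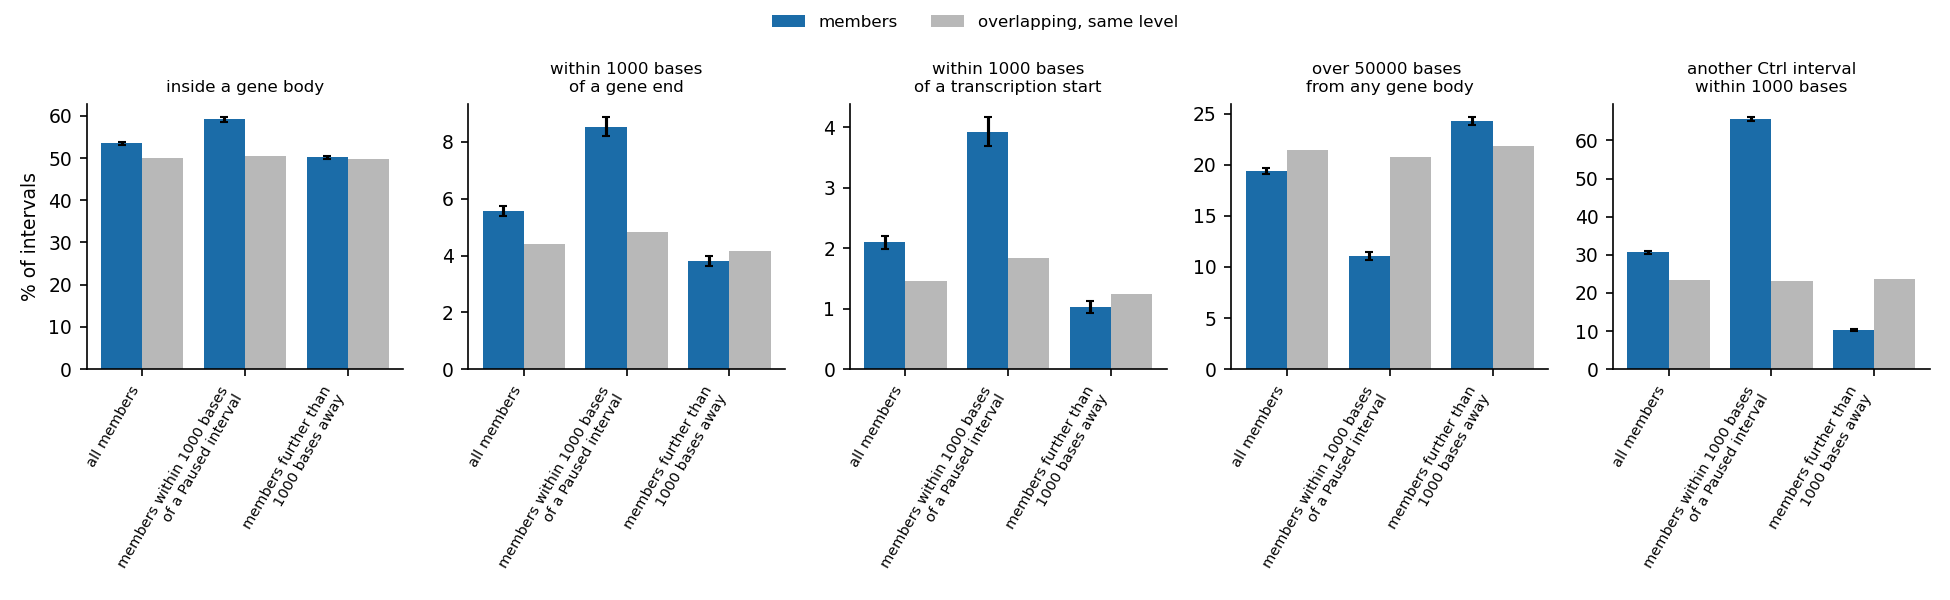
Share of Ctrl-only intervals (blue, members, with 95% Wilson intervals) and of overlapping Ctrl intervals weighted to the same level (grey), for 5 features and for all members, those within 1000 bases of a Paused interval and those further away. Near gene ends the members near a Paused interval stand at 8.54% against 4.83%, and the isolated members at 3.82% against 4.15%.

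Counts per gene are of the intervals nearest to it, inside or outside. Of 19263 protein-coding genes nearest to a Ctrl interval, 15066 had at least 1 Ctrl-only interval, and the most were 75 of 186 intervals at Dst, which encodes the cytoskeletal linker dystonin. From the levels of its intervals 51.4 would be Ctrl-only. The others of the 10 genes with the most were Pcdh9 (73 of 191, with 65.4 from level), Ptprg (68 of 173, with 42.5), Auts2 (62 of 203, with 45.3), Tenm4 (61 of 208, with 45.2), Robo1 (60 of 178, with 44.6), Tle4 (57 of 144, with 36.5), Tenm3 (56 of 217, with 48.5), Csmd3 (55 of 179, with 50.0) and Msi2 (54 of 172, with 38.4). Pcdh9, Ptprg, Tenm4, Robo1 and Tenm3 encode adhesion or guidance molecules of neurons, Tle4 a corepressor and Msi2 an RNA-binding protein. All 10 were above the number from level, which their choice by count favours. Of the Ctrl-only intervals of Dst 72 lay inside the gene, but of those of Pcdh9 15 and of those of Csmd3 16. When the Ctrl intervals inside genes were split into 8 groups by gene length, 26.0% were Ctrl-only in the longest (355 to 2390 kb), against 23.6% from level, and 19.6% were isolated, against 14.9%. The shortest group (up to 18.8 kb) stood about as far above level, with 23.0% against 20.4%, but 11.5% of its intervals were isolated, against 12.7% from level. In the 6 groups between, 12.4% to 14.8% were isolated.

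Some Ctrl-only intervals stood in runs, that is, consecutive Ctrl intervals none of which overlapped a Paused interval. Of the 70825, 39705 stood alone and the rest in runs of 2 to 13. How many runs the overall Ctrl-only share of 23.6% would give by itself was not computed, so the runs are a description. The longest run had 13 intervals over 33.6 kb, all inside Mdn1, which encodes an ATPase of ribosome assembly. Their means ran from 6.03 to 19.0, and Mdn1 held 49 Ctrl but 20 Paused intervals. Runs of 10 lay over Ccdc66 and Tasor (a subunit of the HUSH silencing complex), in the splicing factor gene Cwc22, and over Klhl32 and Mms22l. Inside Cwc22 there were 29 Ctrl and 10 Paused intervals, and 1 interval of its run was called higher in both KO lines. Runs of 9 lay at Rtl1, an imprinted gene derived from a retrotransposon, at Kif2a, a kinesin that depolymerizes microtubules, at Pcdh9 and at Dnttip1, a subunit of a histone deacetylase complex. The Cwc22 interval was the only call by limma in these 8 runs, whose median means were 9.34 to 13.1. How many of their intervals were tested is not given here. Of tested Ctrl-only intervals with a mean of 10 to 15, 1.50% were higher and 1.52% lower in both KO lines. Under 10, these were 1.19% and 0.520%, so 1 call says little about the runs.

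The comparison of the Smad2 knockout lines with WT was made within the Ctrl table. It is a description here, because whether a Ctrl interval has a Paused partner depends on Paused libraries of which 8 of 12 were KO. Values are differences of log2(value + 1), and a call in both KO lines means limma adjusted p under 0.05 for Smad2_KO1 and for Smad2_KO2 against WT, in 1 direction. Of the 70825 Ctrl-only intervals 58978 had a value of 10 or more in at least 4 libraries and were tested, 109 of them passing through WT libraries alone and 5342 through KO libraries alone, that is, with no library of the other kind at 10 or more. Of those tested, 2248 (3.81%) were called in both KO lines, against 7.15% of all 282089 tested Ctrl intervals and 4.91% of overlapping intervals of the same level. The calls were 1013 higher (1.72%, against 3.95% of all and 3.41% at the same level) and 1235 lower (2.09%, against 3.20% of all and 1.50% at the same level). Among them 435 of the higher calls had passed the filter through KO libraries alone and 89 of the lower calls through WT libraries alone, so that a difference was built into these. In Smad2_KO1 4363 (7.40%) were called against WT, 2327 higher and 2036 lower. Among all tested Ctrl intervals 11.6% were called there, 7.1% higher and 4.52% lower. In Smad2_KO2 3912 (6.63%) were called, 1858 higher and 2054 lower, where 10.7% of all tested Ctrl intervals were called, 5.83% higher and 4.85% lower. With an absolute log2 difference of at least 1 required as well, the order turned. Then 1063 (1.80%) were called in both KO lines, against 1.51% of all tested Ctrl intervals. No Ctrl-only interval differed between the KO lines by limma, the one tool run on that contrast. An unadjusted p under 0.05 was found for 2188 (3.71% of those tested, against 3.28% of all tested Ctrl intervals). In the authors' deposited table, 5216 Ctrl-only intervals (7.36%) had a false discovery rate under 0.05, against 12.2% of all Ctrl intervals. Of the 70825 Ctrl-only intervals 2036 were higher and 3180 lower in KO by that rate. Among all Ctrl intervals, 6.27% were higher and 5.93% lower.

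The split of calls depended on scaling: TMM factors gave 706 higher and 1638 lower, DESeq2 size factors 688 and 1668, and library totals 1114 and 1194. With another test as well as other factors, edgeR gave 603 and 2026 and the DESeq2 Wald test 125 and 1026. The calls also rested on single libraries. Leaving out WT replicate 3 left 1028 higher and 602 lower, and leaving out WT replicate 4 left 700 and 655, so that in both the higher calls became the more frequent. Higher calls fell to between 563 and 624 on leaving out Smad2_KO1 replicate 1 (563) or 3 (624) or Smad2_KO2 replicate 1 (615) or 2 (566), where 908 to 962 lower calls were left. Leaving out WT replicates 3 and 4 together, an alternative added after the data were seen, left 925 calls, 653 higher and 272 lower, whereas leaving out WT replicates 1 and 2 gave 2773. These were 1.57% and 4.70% of those tested, against 3.29% and 8.09% of all tested Ctrl intervals. Without WT replicate 3 alone the shares were 2.84% against 5.80%, and without WT replicate 4 alone 2.35% against 4.92%. The number of calls thus moved for all Ctrl intervals, not for Ctrl-only intervals alone. At 688 of the 1235 lower intervals (55.7%) WT replicates 3 and 4 were both above replicates 1 and 2, against 46.8% of the lower intervals with a Paused partner. The median lower Ctrl-only interval had 23.5, 22.4, 35.0 and 32.4 normalized reads across WT replicates 1 to 4. What sets these WT libraries apart was not tested.

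The median Ctrl-only interval was higher in KO than in WT by 0.12 on the log2 scale, and the median overlapping interval of the same level by 0.22, a difference of -0.10. With TMM factors these medians were 0.05 and 0.15 and with DESeq2 size factors 0.05 and 0.15, so the rise itself depended on scaling and the difference did not. In each of the 8 KO libraries the difference was negative, from -0.14 to -0.08. The 4 WT libraries, each set against the other 3, gave -0.05, -0.04, 0.06 and 0.01. The choice of level decided its size: it was -0.22 when intervals were matched on the WT mean, -0.14 on the average of the WT and KO means, and -0.0031 on the KO mean. With the KO mean the lower calls also turned from 0.597 percentage points above the same level to 2.00 below it. Among the 944 Ctrl-only intervals with a mean of 100 or more, 110 (11.7%) were lower and 17 (1.80%) higher in both KO lines, against 6.45% and 2.15% of the strong overlapping intervals.

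**Figure D4:**
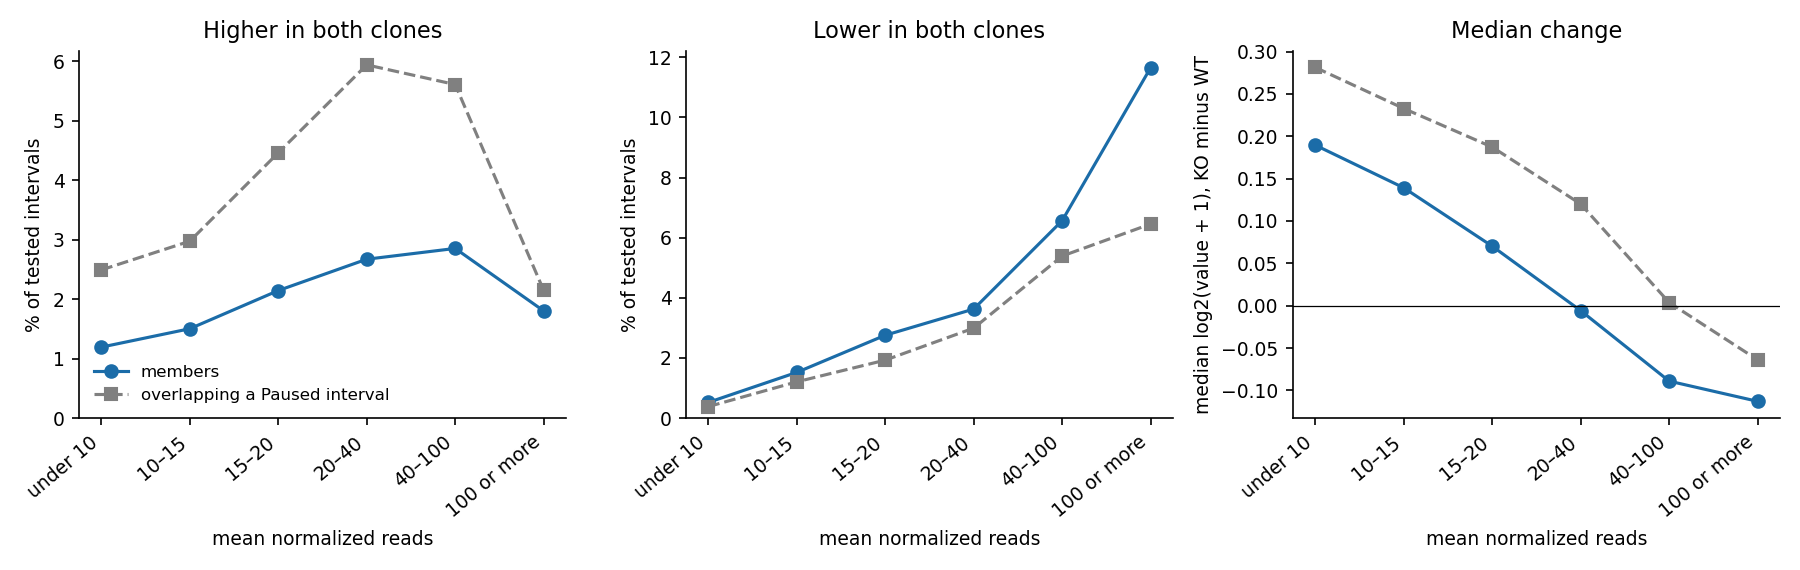
Share of tested intervals called higher (left) or lower (middle) in both knockout lines, and median log2 difference KO minus WT (right), against mean normalized reads, for Ctrl-only intervals (members) and those that overlap a Paused interval. At 100 or more the lower share is 11.7% for members and 6.45% for overlapping intervals.

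The 10 higher intervals with the largest change were weak ones, with means of 7.00 to 27.7. Of these 10, 9 passed the filter through KO libraries alone, which fixes their direction, and their values are a description. The exception was also the strongest. It lay inside Zfp951, a zinc finger gene, at chr5:104829077-104829277. It had 9.61, 8.06, 12.1 and 6.47 normalized reads across WT, 35.0, 49.4, 45.0 and 21.9 across Smad2_KO1 and 38.1, 43.7, 36.1 and 27.2 across Smad2_KO2. All KO libraries were above all WT libraries, and the log2 differences were 1.92 ± 0.23 and 1.90 ± 0.23 (SE), with limma adjusted p = 1.76e-07 and 1.91e-07. The largest change was at chr6:84498066-84498266, 73148 bases from Cyp26b1, an enzyme that degrades retinoic acid. Its mean was 2.58 ± 2.88 in WT, 14.4 ± 4.69 across Smad2_KO1 and 13.8 ± 3.09 across Smad2_KO2 (SD, n = 4 each). Others were nearest to Xlr5c, Prdm11, BC052040, 1700010B08Rik, Fam83b, Nxph1 and the transcription factor genes Jun and Id2, the latter 513167 bases away. Their WT means ran from 1.81 to 4.00 and their KO line means from 8.63 to 16.9.

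The 10 lower intervals with the largest change had means of 8.34 to 16.9 and KO line means of 2.39 to 6.38. All but the one nearest to Brinp3 (9 of 10) passed the filter through WT libraries alone, so here too the values are a description. The largest change was at chr15:94607873-94608073, 17989 bases from Twf1, which encodes the actin-binding protein twinfilin. It had 25.6, 17.0, 49.3 and 42.1 normalized reads across WT, 3.42, 4.11, 4.69 and 1.16 across Smad2_KO1 and 5.01, 1.82, 0 and 5.03 across Smad2_KO2. WT replicates 3 and 4 were the highest. The interval with the highest mean lay inside Ankrd31, which acts in meiotic recombination, with 27.8, 14.3, 59.1 and 52.8 in WT and 4.11 to 8.19 in the 8 KO libraries. Inside Itpr1, the calcium release channel of the endoplasmic reticulum, WT had 13.9, 17.0, 46.0 and 62.6 and the KO libraries 2.31 to 9.25. The rest were in Fam135b and the tyrosine kinase gene Tec, or nearest to Brinp3, Tril, Moxd1, Rnf144a and Krtap27-1. Without WT replicates 3 and 4 the calls at Brinp3, Rnf144a, Fam135b, Krtap27-1, Tec, Tril and Itpr1 were lost, as were those of the higher intervals at BC052040 and Fam83b.

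**Figure D5:**
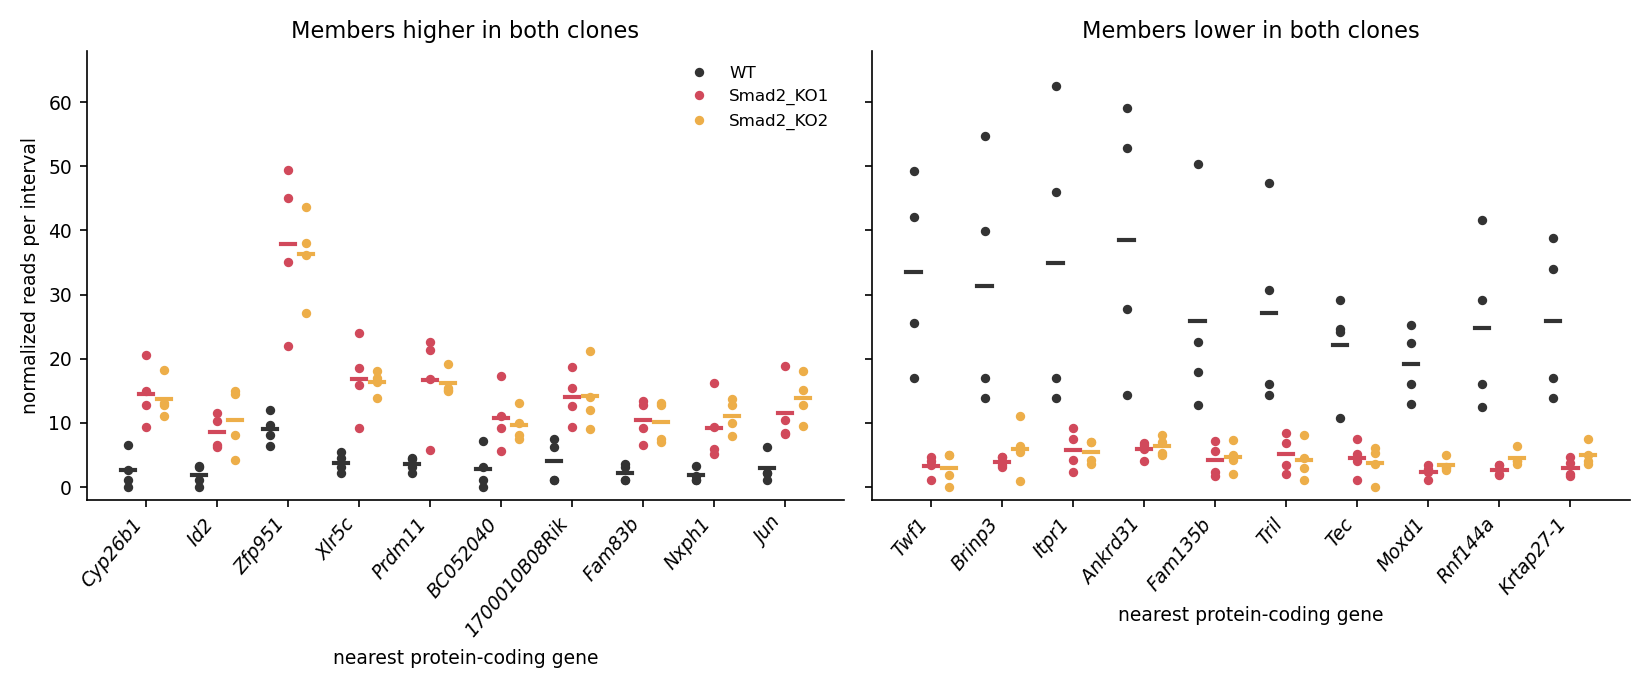
Normalized reads per library (points) and group means (lines) at the 10 higher and 10 lower Ctrl-only intervals with the largest change in both KO lines, labelled by the nearest protein-coding gene. At the lower intervals the WT points spread widely, as at Itpr1 from 13.9 to 62.6.

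Of the 12 Nodal target genes, 49 intervals nearest to them were Ctrl-only, and 48.7 would be from level. Of the 41 tested, 1 was higher (2.44%) and 5 were lower (12.2%) in both KO lines, where 1.72% and 2.09% of all Ctrl-only intervals and 3.95% and 3.20% of all Ctrl intervals were, and their median log2 difference was -0.15 against 0.12 for all Ctrl-only intervals. The called intervals named from here on were singled out after their values were seen. Of the 40 called intervals nearest to genes of the 16 lists, 31 lost the call without WT replicates 3 and 4, and 9 kept it in each fit that left out 1 library and could test them: 1 at Lefty1, 1 at Eomes, both at Sp5, and those of Acadl, Dusp6, Lgr5, Myc and Rpl5. Of these the Myc interval was not tested without any of the WT libraries. Through WT libraries alone 2 of the 40 passed the filter, 1 each at Lefty1 and Myc, and through KO libraries alone 6, 1 each at Ccnd3, Ctnnb1, Fzd5, Klf4, Mycn and Rxra. Lefty1, a secreted inhibitor of Nodal, had 3 Ctrl-only intervals of 7, all lower. The strongest, chr1:180934678-180934878, lay 144 bases outside the gene. It had 79.0, 93.2, 81.0 and 77.6 normalized reads across WT, 43.6, 39.1, 46.9 and 37.0 across Smad2_KO1 and 46.1, 59.2, 47.8 and 55.4 across Smad2_KO2. All WT libraries were above all KO libraries, and the log2 differences were -0.98 ± 0.15 and -0.66 ± 0.15 (SE), with limma adjusted p = 1.26e-05 and 0.00227. A Paused interval lay 382 bases away. The other 2 went from 21.4 ± 7.81 to 8.20 ± 1.97 and 9.77 ± 4.58, and from 16.2 ± 4.20 to 5.71 ± 2.12 and 6.51 ± 1.32 (SD, n = 4, WT, then the KO lines). Both calls were lost without WT replicates 3 and 4 and without Smad2_KO2 replicate 2. The former was also lost without WT replicate 1, 3 or 4, Smad2_KO1 replicate 3 or Smad2_KO2 replicate 1. The latter was lost without WT replicates 1 and 2, and it could not be tested without a single WT library, since it passed the filter through the 4 WT libraries alone.

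Eomes, a T-box factor of mesoderm and endoderm, had a lower isolated interval at chr9:118432868-118433068, 45118 bases outside the gene. It fell from 45.6 ± 12.3 in WT to 12.5 ± 4.45 across Smad2_KO1 and 19.0 ± 5.52 across Smad2_KO2 (SD, n = 4 each), with limma adjusted p = 1.62e-06 and 0.000613, a call that was lost without WT replicates 3 and 4. Its second called interval was higher, from 13.2 ± 3.91 to 22.2 ± 4.46 and 24.0 ± 6.69, with adjusted p = 0.0464 and 0.0270 by limma, and was no longer called with TMM factors, with edgeR, or without any of 8 single libraries. The strongest Ctrl-only interval of the list lay in Smad7, an inhibitor of the pathway, with 185, 151, 255 and 243 in WT, 159 to 172 across Smad2_KO1 and 141 to 169 across Smad2_KO2. Its log2 differences were -0.29 (limma adjusted p = 0.0988) and -0.41 (adjusted p = 0.0179). Nodal itself had 11 Ctrl intervals, none of them Ctrl-only, and Lefty2 had 2 Ctrl-only intervals of 8, both without a call by limma, edgeR or DESeq2 and without an unadjusted p under 0.05 in both KO lines.

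Lipid metabolism and Pparg genes had 91 Ctrl-only intervals of 391, with 87.2 from level. Of 81 tested, 4 were higher (4.94%) and 1 was lower (1.23%), against 3.95% and 3.20% of all Ctrl intervals, with a median log2 difference of 0.19. In this list edgeR called 5 and DESeq2 1 of the 81. Of all tested Ctrl-only intervals edgeR called 4.46% and DESeq2 1.95%, against 7.79% and 3.98% of all tested Ctrl intervals. Pparg, the nuclear receptor named in the study's title, had 4 Ctrl-only intervals of 15 (4.41 from level). Of the 3 tested, limma called 0, DESeq2 0 and edgeR 1, and 1 had an unadjusted p under 0.05 in both KO lines. The lower interval was 13547 bases from Acadl, a dehydrogenase of fatty acid oxidation, at chr1:66876856-66877056. It had 29.9, 35.8, 40.5 and 31.3 normalized reads across WT, 13.7, 14.4, 12.2 and 12.7 across Smad2_KO1 and 17.0, 17.3, 11.7 and 14.1 across Smad2_KO2. All WT libraries were above all KO libraries, and the log2 differences were -1.31 ± 0.23 and -1.15 ± 0.23 (SE), with limma adjusted p = 9.92e-05 and 0.000548. The nearest Paused interval was 9840 bases away, and this call held under each alternative that was run. Higher were 2 intervals inside Rxra, the partner receptor of Pparg, with WT means of 6.92 and 8.37 and KO line means of 15.5 to 17.5, calls that were lost without Smad2_KO2 replicate 3. An interval in Ppard, another receptor of that family, went from 39.3 ± 6.88 to 55.9 ± 8.93 and 65.5 ± 8.89 but was no longer called with TMM factors, with edgeR, or without WT replicate 1 or 2 or Smad2_KO1 replicate 1 or 2. The last higher interval lay 19681 bases from Cpt2, a mitochondrial carnitine transferase, with 7.95 ± 2.17 in WT, 18.1 ± 5.91 in Smad2_KO1 and 18.6 ± 1.71 across Smad2_KO2, a call that was lost without Smad2_KO1 replicate 1.

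Naive pluripotency genes had 186 Ctrl-only intervals of 688 (27.0%), where 151 (22.0%) would be from level. Of 170 tested, 2 were called (1.18%, against 3.81% of all Ctrl-only and 7.15% of all Ctrl intervals), both higher. They were nearest to Klf4 and Tbx3, and neither was called by edgeR or DESeq2. FGF and ERK pathway genes had 109 of 391 (27.9%, with 84.0 or 21.5% from level), and formative and primed pluripotency genes 91 of 355 (25.6%, with 73.0 or 20.6% from level). As a share of the list's intervals, these 3 lists were the furthest above level of the 16. Isolated intervals numbered 99 in the naive list (94.3 from level), 56 in the FGF list (52.0) and 54 in the formative list (45.3), so that they made up 4.65 of the excess of 34.5, 3.99 of 25.0 and 8.66 of 18.0 intervals. Mycn had 37 Ctrl-only intervals (23.9 from level), Nanog 10 of 20 (3.98), Etv5 15 of 40 (8.92), Tcf7l1 30 of 95 (21.6) and Sox2 27 of 158 (34.6). The strongest in the naive list was isolated, inside Esrrb, an orphan nuclear receptor, with 267 to 300.1 in WT, 252 to 299 across Smad2_KO1 and 249 to 296 across Smad2_KO2, and not called. The strongest in the FGF list lay 24 bases from Fgf4, the main ligand of the ERK pathway in these cells, with a Paused interval 50 bases away. It had 196 to 290.5 in WT, 207 to 277 across Smad2_KO1 and 238 to 290.0 across Smad2_KO2. In the formative list it lay in the DNA methyltransferase gene Dnmt3a (148 to 178 in WT, 167 to 203 across Smad2_KO1 and 179 to 221 across Smad2_KO2), and was not called.

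In the FGF list 5 of 97 tested were called in both KO lines, each of them lower (5.15%, against 2.09% of all Ctrl-only intervals and 3.20% of all Ctrl intervals). They were 2 intervals in the receptor gene Fgfr2 and 1 each nearest to the receptor gene Fgfr1, the ERK phosphatase gene Dusp6 and the pathway inhibitor gene Spry4. The Dusp6 interval fell from 68.6 ± 20.4 in WT to 39.8 ± 4.27 across Smad2_KO1 and 35.4 ± 4.68 across Smad2_KO2 (SD, n = 4 each). Its WT replicates 1 to 4 had 54.5, 48.4, 81.0 and 90.6, and the call was lost without replicates 3 and 4. The stronger of the Fgfr2 intervals fell from 71.1 ± 6.73 to 44.9 ± 7.55 and 46.5 ± 9.67 (SD, n = 4 each), and was not called without Smad2_KO2 replicate 2. The calls at Fgfr1, Spry4 and the other Fgfr2 interval were lost on leaving out any of 3, 10 and 7 single libraries. In the formative list, with 6.10% called, 4 of 82 were lower, among them those nearest to Dnmt3b, Pou3f1 and Lef1, and 1 was higher, nearest to Dnmt3b, and each of these 5 calls was lost on leaving out some single library. Among Wnt pathway genes 6 of 94 were lower, nearest to Sp5 (2), Lgr5, Tcf7l2, Wnt3 and Lef1, and 2 were higher, nearest to Ctnnb1 and Fzd5. These 8 were 8.51% of those tested, near the 7.15% called of all Ctrl intervals. Among them those of Sp5 and Lgr5 held on leaving out any single library, but that of Lgr5 was lost without WT replicates 3 and 4. Sp5, a transcription factor gene and direct Wnt target, had an isolated interval at chr2:70471906-70472106 with 199, 184, 146 and 189.8 normalized reads across WT. It had 113, 99.7, 142 and 111 across Smad2_KO1 and 119, 124, 124 and 105 across Smad2_KO2, each below every WT library, with log2 differences of -0.62 ± 0.12 and -0.59 ± 0.12 (SE), with limma adjusted p = 0.000344 and 0.000623. In the Myc and cell cycle list 3 of 105 were lower and 2 higher (4.76% called in all). The strongest of these, nearest to Mycn, fell from 196 ± 15.0 to 137 ± 12.9 and 146 ± 23.6 (SD, n = 4 each), and was not called without Smad2_KO2 replicate 2.

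The remaining lists had few calls, each of which, but that of Rpl5 and the lower one of Eomes, was lost on leaving out some single library. Of all tested Ctrl intervals 7.15% were called, and of the tested Ctrl-only intervals 3.81%. mTOR pathway genes had 60 Ctrl-only intervals of 292 (67.3 from level), of which 2 were higher (3.45% of 58 tested). These lay in Eif4ebp1, a repressor of translation that mTOR phosphorylates, and in Rptor, a subunit of mTOR complex 1. Trophoblast genes had 59 (53.9 from level), with the Eomes calls above as its 2 calls (4% of 50 tested). Primitive endoderm genes had 65 (65.7), with 1 lower at Gata6 (1.92% of 52), and neural genes 73 (71.6), with 1 lower near Pax3 (1.75% of 57). Ribosomal protein genes had 14 (12.1), with 1 lower nearest to Rpl5 (7.14% of 14), a call that was lost without WT replicates 3 and 4. Core pluripotency genes had 51 Ctrl-only intervals (51.6 from level), mesoderm and endoderm genes 21 (27.2), Hox genes 14 (12.1) and lysosome and autophagy genes 29 (32.3). Of their 46, 18, 14 and 25 tested, limma and DESeq2 called 0, edgeR called 2, 0, 1 and 0, and 4, 1, 1 and 2 had an unadjusted p under 0.05 in both KO lines. Of all tested Ctrl-only intervals edgeR called 4.46% and DESeq2 1.95%, so 0 calls among so few say little about these lists. Of all tested Ctrl intervals edgeR called 7.79% and DESeq2 3.98%. Their strongest Ctrl-only intervals were at Utf1 (396), Sox17 (218), near Hoxb9 (34.9) and in Ulk1 (284).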

How the data were processed

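ATAC-seq was run on 24 libraries of E14 cells. Per the submitters' processing notes, FastQC, Trim Galore, Bowtie2 2.4.1, MACS3 3.0.3, DiffBind 3.16.0 and build mm10 (GRCm38) were used; duplicate handling, the Tn5 shift and how peaks were pooled are not given in the sources used here. The authors deposited 1 table per treatment with normalized signal, which the values show to be whole reads scaled by a factor of the library, with rounding. At least 98.5% of values in each column were whole reads within 0.0051; in 2 columns per table the step was too near 1 to tell. The authors' deposited false discovery rates (p-value unit) and log2 folds compare KO with WT.

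Overlap was at least 1 base. limma 3.58.1 (R 4.3.3) was fitted on log2(value + 1) over the 12 Ctrl libraries with trend and line as the factor, on intervals with 10 or more in at least 4 libraries, with Benjamini-Hochberg adjustment at 0.05, and checked on simulated data. Same-level values weight overlapping intervals over bins of 0.1 log2 of the mean. "From level" sums, over a gene's or list's intervals, the share of Ctrl-only intervals in the same bin. Alternatives were TMM factors, DESeq2 1.42.0 size factors and Wald test, edgeR 4.0.16, library totals, a pseudocount of 0.1, no filter, other levels, a replicate block and leaving out libraries. Genes are the nearest protein-coding gene bodies of GRCm38.p6 (RefSeq). Named intervals were the 10 strongest, the 10 strongest isolated, the 10 higher and 10 lower ranked by the smaller absolute change of Smad2_KO1 and Smad2_KO2, the 10 genes with most, the longest runs with ties, and the strongest of each list. The Ctrl-only intervals, the lists and the tests were chosen with earlier results of these data known. A few list members are not reported here.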

Additional observations from a re-analysis of the deposited data

Results flagged for a closer look

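In groups of 4 libraries, 1 library stood far from the other 3 (by Dixon's gap test at the 95% level) in 17 of 291 groups searched, where 14.6 would do so by chance. The median Ctrl-only interval had 12.1 normalized reads in WT replicate 3, against 10.7 to 10.8 in the other WT libraries. Single intervals of WT stood apart at Dcaf11 (456 in replicate 4), Pura (361 in replicate 1), Tcf7l1 (486 in replicate 1) and Nlrp12 (651 in replicate 3). Those of Smad2_KO1 stood apart at Lgr5 (20.6 in replicate 2), Tcf7l2 (15.0 in replicate 3) and Fgf4 (207 in replicate 2). Those of Smad2_KO2 stood apart in replicate 3 at Rptor (19.1), Rnf144a (6.37), Ccno (407) and Prdm11 (19.1). In its replicate 2 they did so at Lefty1 (4.55) and Fgf4 (238), in replicate 4 at Nlrp12 (575) and Ctnnb1 (12.1), and in replicate 1 at Eomes (14.0).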

How the results depend on the processing

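The number called in both KO lines (2248) became 1151 with the DESeq2 Wald test (1.95% of those tested, against 3.98% of all tested Ctrl intervals). It became 1063 at an absolute log2 difference of at least 1 (1.80% against 1.51%) and 7160 with the 8 KO libraries as 1 group (12.1% against 17.6%). It was 925 without WT replicates 3 and 4 (1.57% against 3.29%) and 1400 among isolated intervals (3.84% against 7.15%). Leaving out 1 library gave 1355 to 2370. For Smad2_KO1 (4363) the values were 2010, 2170, 1878 without those WT libraries and 2704 among isolated intervals, with 2501 to 4319 on leaving out 1 library. For Smad2_KO2 (3912) they were 1777, 2005, 1556 and 2419, with 2443 to 3965. At an absolute log2 difference of at least 1 the Ctrl-only share was above that of all tested Ctrl intervals. It was 3.68% against 2.78% in Smad2_KO1 and 3.40% against 2.57% in Smad2_KO2. The replicate block gave 2485, 4782 and 4290 calls; deviations of libraries with the same number correlated at a mean of 0.0267, so the numbers do not pair them. Counting a Paused interval within 1000 bases as a partner left 44700.

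Against overlapping intervals of the same level, the difference in percent called (-1.10 points) became -3.86 with the level from WT, -2.44 from KO, -1.54 from the average of both and -0.72 for isolated intervals. For higher calls (-1.70) these were -5.23, -0.434, -2.58 and -1.57, with -1.27 under TMM factors, -1.25 under DESeq2 size factors and -1.81 under library totals. For lower calls (0.597) they were 1.36, -2.004, 1.04 and 0.843, with 0.893 under TMM factors and 0.915 under DESeq2 size factors. The median log2 difference (-0.10) became -0.22, -0.0031, -0.14 and -0.082, with -0.11 to -0.08 on leaving out 1 library. Matching on the level of 1 side ties the match to the change itself; why the values move was not tested further. Positions moved less with the WT level (3.01 points inside genes, 1.34 near gene ends, -1.58 over 50 kb away), but for isolated intervals they became 0.413, -0.335 and 2.47. Of 61 named calls 13 held under every alternative that could test them and 41 were lost without WT replicates 3 and 4; no named interval reversed. Of the 21 named for the largest change or strength, 9 could not be tested without some WT library and 4 without some KO library, because they then missed the filter on low values.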
